A study of Homo sapiens with 6 samples.

Results

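Alpha and beta tubulin isotypes were followed by poly(A) RNA sequencing of SH-SY5Y, a human neuroblastoma line with neuron-like features. The members are the 10 genes whose symbols were listed for this purpose (TUBA1A, TUBA1B, TUBA1C, TUBB, TUBB2A, TUBB2B, TUBB3, TUBB4A, TUBB4B and TUBB6), and all 10 are among the 32862 genes of the deposited table. Of these, 3 encode alpha and 7 encode beta tubulin. One group is untreated SH-SY5Y cells in which OTULIN, a deubiquitinase that removes linear (Met1-linked) ubiquitin chains, was knocked out with CRISPR-Cas9 (OTULIN KO, 3 libraries). It was set against untreated wild-type cells of the line (WT, 3 libraries). The labels put all 6 libraries in batch 1 and do not say whether the KO is 1 clone or a pool, or whether the replicates were grown separately. Each p-value below thus reflects the variation among these 6 libraries, which may be technical.

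Alpha and beta tubulin pair into the heterodimer from which microtubules are built. Each family has several isotypes encoded by separate genes, whose proteins are nearly alike over the body of the molecule and differ most in the acidic tail at the carboxyl end, where many tail-modifying enzymes act. Neurons use a mixture that includes TUBB3, a widely used neuronal marker. Cells also match tubulin synthesis to the free heterodimer: excess soluble tubulin leads to decay of tubulin mRNAs on the ribosome, a process that reads the first residues of the nascent chain through TTC5.

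The KO libraries were far shallower than WT. They held 725827 to 862932 counts, against 61772795 to 64352333 in WT, so the mean total was 78.5-fold larger in WT. Between 2306 and 2567 genes had a count in a KO library, against 27453 to 27958 in a WT library, and 29202 of the 32862 genes were at 0 in all 3 KO libraries. OTULIN had 0 counts in each KO library, against 1682, 2101 and 2155 in the WT libraries, a state it shares with most genes in KO. Of 8 neuroblastoma markers, 5 were at 0 in all KO libraries (PHOX2A, GATA3, DBH, CHGA and TH). Their part in the results below, like that of the depth, was not tested. In bulk RNA, fewer cells of a type and less RNA per cell cannot be told apart.

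The isotypes differ in sequence to unlike degrees, and this decides how surely a read can be given to 1 gene. The last 60 coding bases of the beta members, stop codon included, are shown first because they encode the variable tail. They were read 5′ to 3′ from GENCODE 29 transcripts (GRCh38). Capitals mark bases with no match in an alignment to the tail of TUBB:
TUBB, chr6:30724338-30724397, plus strand: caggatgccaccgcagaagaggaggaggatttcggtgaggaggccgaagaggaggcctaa
TUBB2A, chr6:3153863-3153922, minus strand: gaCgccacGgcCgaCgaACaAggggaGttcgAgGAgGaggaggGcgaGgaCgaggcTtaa
TUBB2B, chr6:3224751-3224810, minus strand: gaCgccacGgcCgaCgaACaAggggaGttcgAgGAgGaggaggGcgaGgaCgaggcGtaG
TUBB3, chr16:89935745-89935804, plus strand: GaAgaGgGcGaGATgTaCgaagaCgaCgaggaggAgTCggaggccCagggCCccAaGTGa
TUBB4A, chr19:6495164-6495223, minus strand: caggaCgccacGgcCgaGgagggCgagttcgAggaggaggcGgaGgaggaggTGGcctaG
TUBB4B, chr9:137243497-137243556, plus strand: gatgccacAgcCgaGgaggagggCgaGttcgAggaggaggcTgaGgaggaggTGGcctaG
TUBB6, chr18:12326071-12326130, plus strand: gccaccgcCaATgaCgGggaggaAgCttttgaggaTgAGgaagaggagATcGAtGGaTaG

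The TUBB2A tail differs from that of TUBB by 20 edits and the TUBB2B tail by 21, while TUBB3 is the most distant with 29. The first 12 coding bases are atgcgtgagtgc in all 3 alpha genes. Over the whole coding sequence, the 3 alpha pairs were 96.0 to 97.3% identical and the 21 beta pairs 81.5 to 98.1%, the highest being TUBB2A with TUBB2B. Of the 100-base windows of each transcript, 54.4% of TUBB2A, 42.4% of TUBB2B, 32.1% of TUBA1B, 18.3% of TUBA1A and 11.5% of TUBA1C also occur in another member. For TUBB3 the share was 5.15% and for TUBB4B 2.86%, and no window of TUBB, TUBB4A or TUBB6 did. How the authors' counting treated reads from the shared windows is not given in the sources used here. Values of TUBA1A, TUBA1B, TUBA1C, TUBB2A and TUBB2B are therefore uncertain to that extent. The same holds for TUBB3 and TUBB4B, by their smaller shares.

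The make-up of both families lay apart in the KO and WT libraries. Shares were taken within a family from FPKM (fragments per kilobase of transcript scaled to sequencing depth), which allows genes of different length to be set side by side. TUBA1A was the leading alpha isotype in KO, with 67.4 ± 4.3% of summed alpha FPKM, against 43.9 ± 0.30% in WT (SD, n = 3 each). TUBA1B made up 25.9 ± 4.6% in KO and 54.6 ± 0.29% in WT, where it led. TUBA1C held 6.72 ± 0.75% in KO and 1.48 ± 0.024% in WT. No KO library overlapped a WT library in any of these 3 shares. By counts, TUBA1A had 48088 of the 69639 alpha counts pooled over the KO libraries, or 69.1% (95% exact binomial interval 68.7 to 69.4%), TUBA1B 23.4% (23.1 to 23.7%) and TUBA1C 7.57% (7.38 to 7.77%). These intervals cover counting error only and leave out the spread among libraries. Single KO libraries gave 73.6, 67.8 and 66.0% for TUBA1A and 18.4, 25.6 and 26.0% for TUBA1B, all outside the intervals. With 3 against 3 libraries an exact permutation test (two-sided) cannot go below p = 0.1, the value reached for each share.

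The beta family was almost a single isotype in KO. TUBB4B made up 97.6 ± 1.4% of summed beta FPKM in KO and 16.7 ± 0.15% in WT. TUBB, the broadly expressed class I isotype, held 0.315 ± 0.16% in KO and 57.9 ± 1.0% in WT. In KO the rest was TUBB2A with 1.12 ± 0.98%, TUBB2B with 0.782 ± 0.68% and TUBB3 with 0.205 ± 0.36%, each at 0 in at least 1 library. In WT the rest was spread over TUBB2B with 8.66 ± 0.12%, TUBB3 with 8.15 ± 0.45%, TUBB2A with 6.46 ± 0.099%, TUBB4A with 1.55 ± 0.34% and TUBB6 with 0.582 ± 0.053%. The KO counts behind these shares are few outside TUBB4B. Of 4063 beta counts pooled over the 3 KO libraries, 3879 were TUBB4B, or 95.5% (95% exact binomial interval 94.8 to 96.1%, counting error only). TUBB4A and TUBB6 had 0 of the 4063. The 95% exact binomial interval reaches a share of 0.0908% for each, and 3 counts would be 0.0738%.

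**Figure D1:**
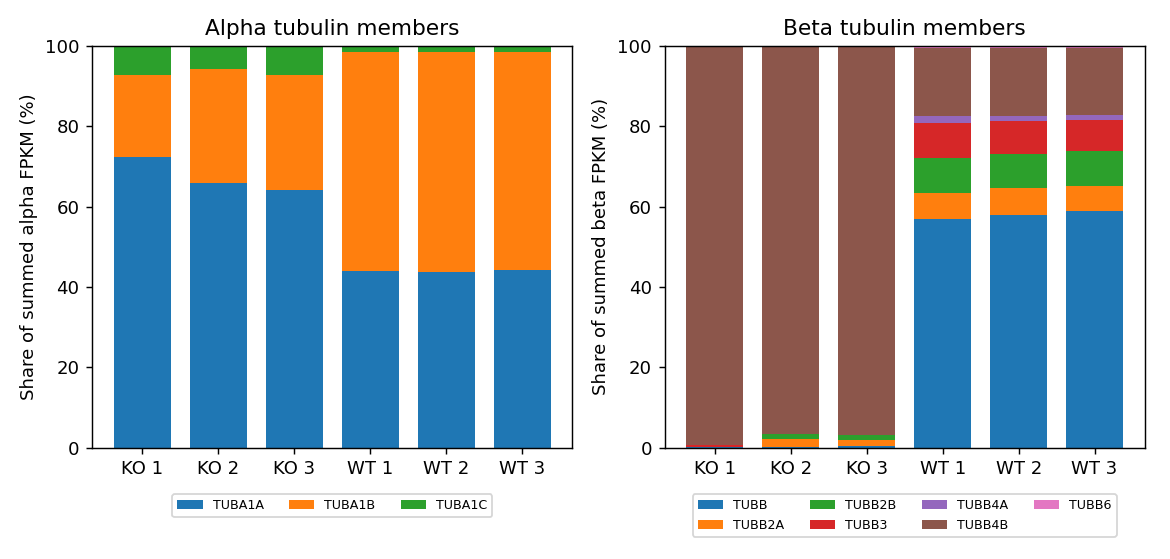
Share of summed FPKM held by each isotype within the alpha family (left panel) and the beta family (right panel), in percent, 1 stacked bar per library, with the 3 OTULIN KO libraries left of the 3 WT libraries. TUBA1A leads in KO and TUBA1B in WT, and TUBB4B fills 96.6 to 99.2% of the beta bars in KO against 16.5 to 16.8% in WT.

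Levels by the authors' FPKM stood in a different order in each group, and both orders depend on the gene lengths behind FPKM. In KO the order of mean FPKM was TUBA1A (4453 ± 580), TUBA1B (1723 ± 476), TUBB4B (717 ± 95), TUBA1C (449 ± 107), and then the low beta genes, each under 13 FPKM in every library. The ranges of the first 4 did not overlap. In WT the order was TUBB (745 ± 30), TUBA1B (692 ± 12), TUBA1A (556 ± 7.6), TUBB4B (215 ± 14), TUBB2B (112 ± 7.9), TUBB3 (105 ± 12), TUBB2A (83.3 ± 5.4), TUBB4A (20.2 ± 5.7), TUBA1C (18.8 ± 0.21) and TUBB6 (7.48 ± 0.28). Neighbours in the WT order were apart in every library except TUBB2B with TUBB3, and TUBB4A with TUBA1C, whose ranges overlapped. Over all 10 members in WT, TUBB held 29.2 ± 0.22% of the summed FPKM, TUBA1B 27.1 ± 0.56% and TUBA1A 21.8 ± 0.51%, while TUBB3, the neuronal class III isotype, held 4.11 ± 0.31%.

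Each member was then compared between genotypes with edgeR's quasi-likelihood test on the deposited counts, fitted over the 10820 genes that averaged 1 FPKM or more and adjusted over all of them (Benjamini-Hochberg, called at an adjusted p under 0.05). All 10 members passed the filter and all 10 were called: 4 higher in KO and 6 lower. Over all tested genes, 95.6% were called, 7.63% higher and 88% lower, and 71.3% had 0 counts in all KO libraries. A call is therefore the rule in this comparison. The 4 called higher were the 3 alpha genes and TUBB4B, and the 6 called lower were all beta genes. The median log2 change of the 10 was -4.17, beside -12.42 over all tested genes. Most tested genes were at 0 in KO, so the median over all is a fitted value, not a measured change. It depends on the method, being -7.62 with DESeq2 and -2.72 with limma on log2(FPKM + 1). The KO and WT ranges of FPKM did not overlap for any member, as for 8.02% of tested genes on the higher side and 88.2% on the lower. The scale matters for the size of the higher values: among the 1496 genes with at least 30 KO counts, TMM factors put the median log2 change at 0.57, median-ratio size factors at 0.01 and library totals alone at 0.96. No member changed direction under these scalings.

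**Figure D2:**
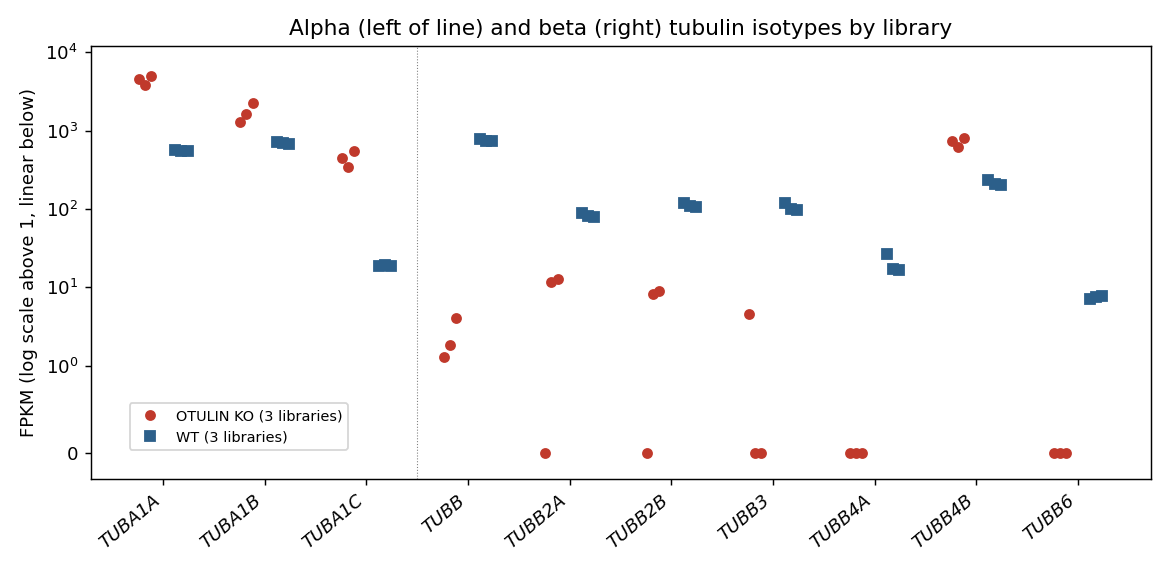
FPKM of each member in each library, on an axis that is logarithmic above 1 and linear below it. Circles are the 3 OTULIN KO libraries, squares to their right the 3 WT libraries, and the dotted line parts alpha from beta genes. The alpha genes and TUBB4B lie higher in KO, with TUBA1A at 3834 to 4984 against 549.6 to 564, and the other beta genes lie lower or at 0.

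TUBA1A, the main alpha isotype of developing neurons (ENSG00000167552, minus strand, hg38 chr12:49184686-49189324), had 4542, 3834 and 4984 FPKM in KO and 564, 549.6 and 553 FPKM in WT. Every KO library was above every WT library. It was the 6th most abundant gene by FPKM in each KO library and stood between 42nd and 44th in WT. The log2 change was 2.63 ± 0.058 (SE, edgeR adjusted p = 1.1e-06), with mean CPM (counts scaled to 1000000 per library) 8.19-fold higher in KO.

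TUBA1B, an alpha isotype found in most cell types (ENSG00000123416, minus strand, chr12:49127782-49131395), had 1289, 1649 and 2231 FPKM in KO and 704, 692 and 679.7 FPKM in WT. The KO values spread widely but all lay above WT. Mean CPM was 2.55-fold higher in KO, with a log2 change of 0.95 ± 0.19 and an edgeR adjusted p of 0.0022. With median-ratio size factors the log2 change was 0.38 (edgeR adjusted p = 0.045), and with library totals alone 1.35. The size of the rise against 0 moves with the scaling, as does the median of the genes with at least 30 KO counts given above.

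TUBA1C (ENSG00000167553, plus strand, chr12:49188736-49274600) is the minor alpha isotype of WT cells. It had 451, 341 and 554 FPKM in KO and 18.8, 19.0 and 18.6 FPKM in WT. The groups were far apart, and it had the largest rise among the members, with a log2 change of 4.20 ± 0.15 (edgeR adjusted p = 4.7e-06) and mean CPM 24.4-fold higher in KO. Its counts were 1821, 1471 and 1980 in KO and 5666, 5933 and 5577 in WT, so the change is one of share of the library.

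TUBB4B, the broadly expressed class IVb beta isotype that is also abundant in cilia (ENSG00000188229, plus strand, chr9:137241287-137243707), was the beta gene that rose. It had 727.5, 618 and 806 FPKM in KO and 231, 211 and 205 FPKM in WT. All KO libraries were above all WT libraries. The log2 change was 1.37 ± 0.091 (edgeR adjusted p = 1.5e-05), and mean CPM was 3.41-fold higher in KO. With median-ratio size factors the log2 change was 0.80.

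TUBB (ENSG00000196230, plus strand, chr6:30717435-30725538), the member with the most counts and the highest FPKM in WT, was close to 0 in KO. It had 5, 8 and 14 counts in KO and 215222, 207802 and 200038 counts in WT. At the WT share of counts, the KO libraries would have held 2679, 2855 and 2402. The level was 11.6 ± 6.9 CPM in KO and 3309 ± 130 CPM in WT, 286-fold lower in KO, with a log2 change of -8.58 ± 0.29 (edgeR adjusted p = 4.0e-06). Its transcript shares no 100-base window with another member.

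TUBB2A (ENSG00000137267, chr6:3153497-3157544) and TUBB2B (ENSG00000137285, chr6:3223324-3227653) are class II genes near each other on the minus strand, and TUBB2B is known for its role in neuronal migration. Both had exactly 0, 33 and 30 counts in the KO libraries. In WT, TUBB2A had 17573, 16742 and 15415 counts and TUBB2B had 33997, 31689 and 29653. The pair had equal counts in each KO library and different counts in WT, and how reads that fit both genes were assigned was not tested. TUBB2A was 9.96-fold lower in KO by mean CPM (log2 change -3.70 ± 0.71, edgeR adjusted p = 0.0019) and TUBB2B 19.1-fold lower (-4.64 ± 0.74, adjusted p = 7.6e-04). Without KO replicate 1, which had none of their reads, the log2 changes were -3.09 for TUBB2A and -4.03 for TUBB2B.

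TUBB3 (ENSG00000258947, plus strand, chr16:89921392-89936097) had 31, 0 and 0 counts in KO and 59658, 52542 and 48099 counts in WT. All of its KO counts came from replicate 1, and whether they fell in windows shared with another member was not tested. Mean CPM was 66.7-fold lower in KO, with a log2 change of -6.46 ± 0.93 (edgeR adjusted p = 4.4e-04). Without KO replicate 1 it was at 0 in the KO group.

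TUBB4A, the class IVa isotype of brain (ENSG00000104833, minus strand, chr19:6494319-6502803), and TUBB6, the class V isotype (ENSG00000176014, plus strand, chr18:12307669-12344320), had 0 counts in every KO library. TUBB4A had 5868, 3947 and 3602 counts in WT, and TUBB6 had 1915, 2112 and 2036. Set against 3 pooled KO counts, or 1.25 CPM, as the lowest level that could be seen, TUBB4A was at least 57.0-fold lower and TUBB6 at least 25.7-fold lower in KO. The edgeR adjusted p was 9.3e-04 for TUBB4A and 1.8e-05 for TUBB6. They have the lowest WT FPKM of the 7 beta members.

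**Figure D3:**
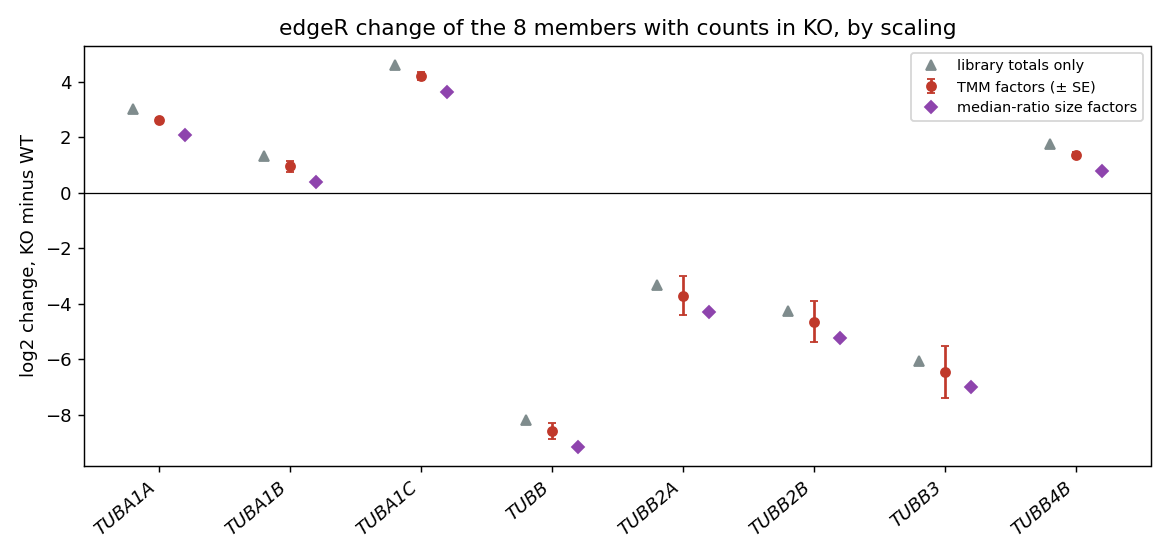
log2 change (OTULIN KO minus WT) from edgeR for the 8 members with counts in KO, under 3 scalings: library totals only (triangles), TMM factors (circles, with the standard error) and median-ratio size factors (diamonds). The order of the genes and the sign of each change are the same under all 3, and TUBA1B comes nearest to 0, at 0.38 with median-ratio size factors.

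Summed over its members, the alpha family took a larger share of the library in KO and the beta family a smaller one. Summed alpha was 28062, 25817 and 33950 CPM in KO, against 5329.6, 5224 and 5200.2 CPM in WT, a 5.58-fold higher mean in KO. Summed beta was 1702, 1498 and 1918 CPM in KO, against 5884, 5360.2 and 5293 CPM in WT, a 3.23-fold lower mean in KO. In FPKM the beta sum was 735 ± 97 in KO and 1289 ± 74 in WT, a 1.75-fold lower mean. The ratio of summed alpha to summed beta FPKM was 8.57, 9.11 and 9.33 in KO, against 0.937, 1.00 and 1.01 in WT. By FPKM, WT libraries thus held about equal alpha and beta message, and each KO library held an excess of alpha. By counts, with no division by length, the ratio was 16.5, 17.2 and 17.7 in KO, against 0.906, 0.975 and 0.982 in WT. Both sums and the ratio reached p = 0.1, the lowest value open to the exact permutation test. All 10 members together made up 3.10 ± 0.44% of counts in KO and 1.08 ± 0.039% in WT.

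**Figure D4:**
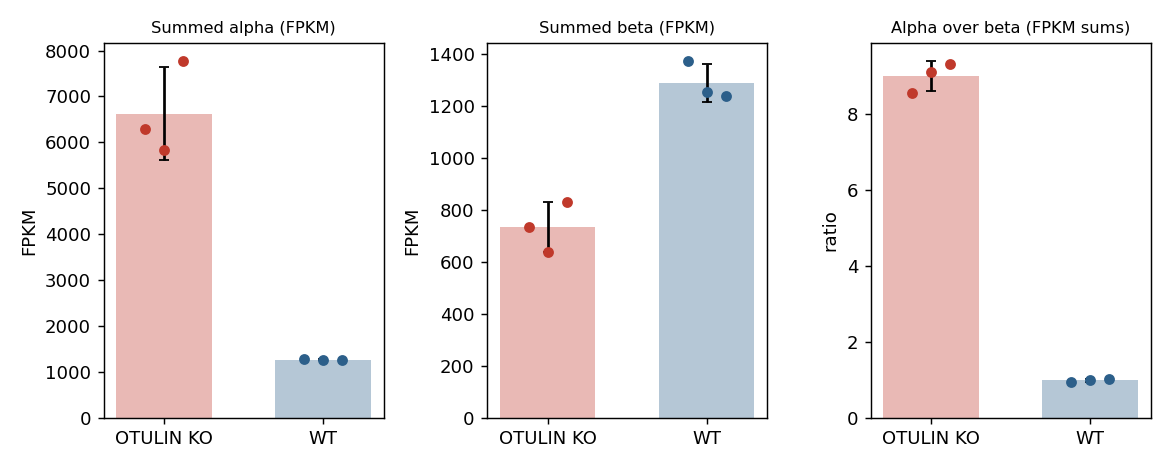
Summed alpha FPKM, summed beta FPKM and their ratio, with OTULIN KO left of WT in each panel. Bars are means, error bars the SD and points the 3 libraries of each group. The alpha sum is higher in KO, the beta sum lower, and the ratio is 8.57 to 9.33 in KO against 0.937 to 1.01 in WT.

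Ratios between members do not depend on the scaling of the libraries. TUBA1A counts were 12.5, 12.4 and 12.3 times those of TUBB4B in KO, against 4.88, 5.21 and 5.40 times in WT. The SD of this ratio among the KO libraries was 0.063, against 0.26 among the WT libraries. TUBB4B had only 1342, 1219 and 1318 counts in KO, so these SDs do not measure how closely the 2 genes vary together. The TUBA1A to TUBA1B ratio was 4.01, 2.65 and 2.54 in KO, against 0.913, 0.904 and 0.926 in WT, with KO replicate 1 above the other KO libraries. The SD of that ratio was 0.82 in KO and 0.011 in WT. TUBB counts were 0.0037, 0.0066 and 0.0106 times those of TUBB4B in KO, against 6.76, 6.90 and 7.11 times in WT.

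The alpha genes lie in a cluster on chromosome 12 where annotated genes of both strands overlap. TUBA1B-AS1, a long noncoding RNA gene on the plus strand (ENSG00000258017, chr12:49127782-49188484), spans all of TUBA1B and 3799 bases of TUBA1A, and in GENCODE 29, 1309 of its 1632 exonic bases (80.2%) overlap exons of TUBA1B. It had 3481, 1222 and 1331 counts in KO and 2767, 3461 and 2612 in WT, with a log2 change of 5.33 ± 0.46 (edgeR adjusted p = 3.4e-05). Its counts were 0.834, 0.214 and 0.208 times those of TUBA1B in KO, against 0.0162, 0.0200 and 0.0159 times in WT. KO replicate 1 had both the highest TUBA1B-AS1 and the lowest TUBA1B count of its group. Inside TUBA1C, the minus-strand gene ENSG00000258232 had 120, 301 and 95 counts in KO and 1 count in each WT library. TUBA1A and TUBA1C overlap by 589 bases on opposite strands. The strandedness of counting is not given in the sources used here, so reads of TUBA1B and TUBA1B-AS1, and of TUBA1C and its overlapping genes, cannot be told apart with certainty. These antisense genes were singled out after their values were seen.

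Tubulin pseudogenes, picked by symbol, are copies that can draw reads from their parent genes, and they took little of the signal. Of 13 alpha and beta pseudogene genes in the table, 1 had counts in KO. This was TUBAP2, with 6, 16 and 27 counts in KO and 136, 133 and 148 in WT (log2 change 2.83 ± 0.49, edgeR adjusted p = 0.0011). Over the coding sequence of TUBA1B, the best-matching stretch of TUBAP2 is 96.4% identical, and over that of TUBA1A 94.6%. Both of these genes rose. TUBB2BP1 had 0 counts in all KO libraries and 2336, 2165 and 1993 in WT. It is 94.6% identical to TUBB2A and 93.0% to TUBB2B. TUBA3FP had 0 counts in KO and 566, 521 and 657 in WT. Together the pseudogenes held 0.0654 ± 0.039% of alpha and beta tubulin counts in KO and 0.453 ± 0.013% in WT (exact two-sided permutation p = 0.1, the smallest possible).

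Genes that fold, nucleate, cut and modify tubulin were counted next. Over 8 lists with 82 genes, 79 were in the table and 61 were tested. Of the 61, 58 were called lower in KO, 2 were called higher and 1 passed in neither direction. KO counts were missing altogether for 52 of them. Over all tested genes, 88% were called lower, 7.63% higher and 71.3% were at 0 in KO, so most of these genes did what most tested genes did. Genes at 0 in KO passed the filter through their WT level. No difference between the lists and other genes was tested. The other alpha and beta tubulins (7 in the table) were at 0 in every KO library and too low in WT to be tested.

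All 6 subunits of prefoldin, which hands nascent tubulin to the chaperonin, were called lower and at 0 in KO (88% and 71.3% of all tested genes), with PFDN2 at least 72.4-fold and VBP1 at least 66.4-fold lower. All 8 subunits of CCT, the cytosolic chaperonin that folds tubulin and actin, were called lower and 5 were at 0, to be read against the same shares. CCT5 was at least 456-fold, CCT6A at least 388-fold, CCT2 at least 370-fold and CCT7 at least 290-fold lower in KO (against 3 pooled counts). TCP1, another subunit, kept 13, 7 and 2 counts in KO, against 23091, 27742 and 27029 in WT. All 7 genes of the heterodimer assembly list, which holds the tubulin cofactors and ARL2, were called lower, again as 88% of all tested genes were. Of these, TBCB was at least 67.6-fold and TBCA at least 50.2-fold lower.

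In the list of tubulin mRNA autoregulation the 2 tested genes parted. CNOT11, the subunit through which the CCR4-NOT deadenylase is brought to tubulin mRNAs, rose. It had 142, 144 and 149 counts in KO and 2981, 3119 and 3126 in WT, 3.73-fold higher by mean CPM in KO (log2 change 1.50 ± 0.084, edgeR adjusted p = 1.2e-05). TTC5, the factor that recognises nascent tubulin, had 0 counts in every KO library and 1575, 1957 and 1657 in WT, at least 22.0-fold lower (adjusted p = 5.7e-05). SCAPER, the adaptor between them, was not tested.

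Among the severing enzymes, which cut microtubules, 5 of 6 tested were called lower and 1 higher. FIGN (fidgetin) had 129, 121 and 106 counts in KO and 971, 1073 and 1065 in WT, 9.0-fold higher by mean CPM in KO (log2 change 2.77 ± 0.070, edgeR adjusted p = 1.3e-06). Its relative FIGNL1 was at least 57.9-fold and SPAST (spastin) at least 57.0-fold lower. Of the enzymes that modify tubulin, most at the tail and some, such as ATAT1, by acetylation elsewhere, all 19 tested were called lower (88% of all tested genes) and 18 were at 0 in KO (71.3% of all). TPGS2, a subunit of the neuronal polyglutamylase, was at least 138-fold, TTL, the tubulin tyrosine ligase, at least 109-fold and MATCAP1, a detyrosinase, at least 69.3-fold lower. AGBL5, a deglutamylase, was the one gene of this list with KO counts, at 24, 38 and 28 against 6855, 6420 and 5884 in WT (log2 change -1.83 ± 0.17, edgeR adjusted p = 4.6e-05).

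The list of gamma, delta and epsilon tubulins and the gamma-tubulin ring complex, from which microtubules are nucleated, had 12 of 13 genes called lower (88% of all tested genes) and 11 at 0 in KO (71.3% of all). TUBGCP4 was at least 61.1-fold and TUBGCP3 at least 59.1-fold lower in KO. TUBG1, gamma tubulin itself, was not called. It had 0, 0 and 356 counts in KO and 5902, 5560 and 5152 in WT (log2 change 0.42 ± 1.35, edgeR adjusted p = 0.77), so KO replicate 3 holds all of its KO counts. Without that library it was at 0 in KO and called lower, as the 59th of the 61.

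**Figure D5:**
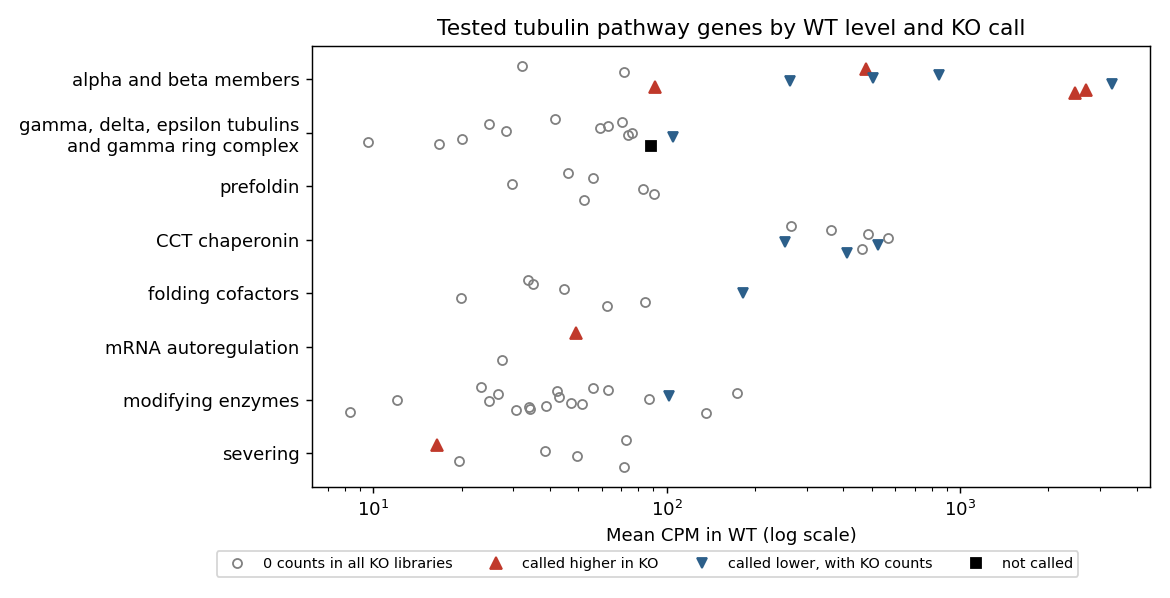
Tested genes of the tubulin lists, 1 row per list with the 10 members on top, placed by mean CPM in WT (log axis). Triangles pointing up are called higher in OTULIN KO, triangles pointing down are called lower with some KO counts, open circles have 0 counts in all KO libraries, and the square is not called. Beside the members, the genes called higher are CNOT11 and FIGN, and 52 of 61 pathway genes are open circles.

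Upstream sequence is shown for TUBA1A, TUBA1C and TUBB4B, the members with the largest log2 rise, and for TUBB, the lower member with counts in every KO library. The 250 bases before an annotated start were taken from RefSeq (GRCh38.p14), which had 16 entries for the 10 members. Capitals mark the CCAAT box (CCAAT), the GC box (GGGCGG), the TATA box (TATAAA) and the alternating run TATATA, each on either strand, and the 5′ end comes first. TATATA and TATAAA can overlap each other. TUBA1C has 3 entries, of which the printed one is the only one with TATATA. TUBB has 2, and the one not printed holds 5 GC boxes and no CCAAT.
TUBA1A, chr12:49189081-49189330, minus strand: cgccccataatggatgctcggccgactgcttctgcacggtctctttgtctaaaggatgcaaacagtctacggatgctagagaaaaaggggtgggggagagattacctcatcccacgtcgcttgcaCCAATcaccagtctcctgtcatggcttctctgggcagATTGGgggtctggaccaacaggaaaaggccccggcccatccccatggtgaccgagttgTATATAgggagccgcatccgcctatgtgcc
TUBA1C, chr12:49264832-49265081, plus strand: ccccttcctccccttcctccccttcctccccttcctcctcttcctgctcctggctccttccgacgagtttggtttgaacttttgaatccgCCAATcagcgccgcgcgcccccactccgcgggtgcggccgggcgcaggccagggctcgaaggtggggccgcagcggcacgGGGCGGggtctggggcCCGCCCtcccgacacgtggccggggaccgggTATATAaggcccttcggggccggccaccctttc
TUBB4B, chr9:137241037-137241286, plus strand: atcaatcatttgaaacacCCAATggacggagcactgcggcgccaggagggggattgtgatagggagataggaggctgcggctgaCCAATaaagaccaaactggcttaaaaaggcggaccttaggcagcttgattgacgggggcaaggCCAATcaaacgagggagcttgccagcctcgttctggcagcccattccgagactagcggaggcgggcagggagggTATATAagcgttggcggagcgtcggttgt
TUBB, chr6:30720102-30720351, plus strand: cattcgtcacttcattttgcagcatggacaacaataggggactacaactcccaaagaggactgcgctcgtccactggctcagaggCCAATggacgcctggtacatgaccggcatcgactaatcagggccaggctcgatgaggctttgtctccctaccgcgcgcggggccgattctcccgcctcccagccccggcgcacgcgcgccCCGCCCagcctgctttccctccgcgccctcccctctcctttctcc

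TATATA lies in 3 of the 16 windows of members, 1 each of TUBA1A, TUBA1C and TUBB4B, and in 3.73% of the 35116 windows in the RefSeq table. It was added to the search after these sequences had been read. TATAAA lies in 1 of the 16, that of TUBB2A, and in 10.7% of all windows. CCAAT lies in 10 of the 16 windows and in 32.0% of all windows. It has 3 copies in TUBB4B, 2 in TUBA1A and 2 in 1 window of TUBB4A, a member at 0 in KO. GGGCGG lies in 9 of the 16, none of them of TUBA1A or TUBB4B, and in 42.6% of all windows. TUBA1B, which also rose, has a GC box and no other of these motifs in its window. These are matches of letters only.

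By Euclidean distance on log2(FPKM + 1) over the 6 libraries, the genes outside the tubulins nearest to the summed alpha level were YBX1, EIF5A and EIF1, at 4.67, 5.55 and 5.81. YBX1 had 2146, 1980.4 and 2641 FPKM in KO and 297, 264 and 263 FPKM in WT. Nearest to the summed beta level were EEF1A1 at 1.53, HNRNPAB at 4.44 and YBX1 at 4.76. Of these, EEF1A1 was lower in KO, as the beta sum was, while HNRNPAB and YBX1 were higher in KO. HNRNPAB had 741, 692 and 1003 FPKM in KO and 224, 213 and 217 FPKM in WT. EEF1A1 had 474, 399 and 564 FPKM in KO, against 820.3, 849.95 and 849.8 FPKM in WT.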

How the data were processed

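Poly(A)-selected RNA was sequenced from 3 OTULIN KO and 3 WT libraries, grouped by the genotype in their labels. The deposited table holds whole-number counts per gene, not normalized, and FPKM values that the authors computed, whose sum averaged 425472 in KO and 283955 in WT. Tools listed without roles in the submitters' processing notes were StringTie 1.3.4d, HISAT2 2.0.4, cutadapt 1.9 and DESeq2, with genome build hg38. Which annotation release was used is not given in the sources used here.

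edgeR 4.0.16 (R 4.3.3; glmQLFit, glmQLFTest) was run with TMM factors, library totals and genotype as the only term. It was tested on simulated counts in which most genes were the same in both groups. Most genes were called here, so the simulation does not bear on the scaling of these data. Standard errors are the log2 change over the square root of F. CPM are counts divided by the library's total of all counts, per 1000000. A gene at 0 in KO was set to 3 of the 2398362 pooled KO counts to bound its fold. Intervals and floors cover counting error only. No replicate pair was 1 library counted again (chi-square per degree of freedom 15.5 to 41.7). Alternatives used DESeq2 1.42.0, limma 3.58.1, other factors and filters, and each library left out. Sums and shares were compared with exact permutation tests.

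The members, gene lists and tests were chosen with earlier results of these data known. All members were named; of each other list, up to 4 called genes with the largest change were named, or, failing any, 2 with the smallest p. Of the pseudogenes, the 3 with the largest summed counts in either group were named. TCP1, AGBL5, FIGN, TUBG1 and SCAPER were named after their values were seen. Coding sequences came from GENCODE 29 (GRCh38), whose chromosome and strand matched the table for all 10 members. Protein sequences were not used here, and some marker and sequence results are not reported here. Other-tissue markers were low in both groups: epithelial markers summed to 4.94 to 28.97 CPM in KO and 7.43 to 23.1 CPM in WT, blood markers to 0 to 6.89 and 1.46 to 2.17 CPM, and glia and endothelium markers to 0 to 26.7 and 0.109 to 1.04 CPM.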

Additional observations from a re-analysis of the deposited data

How the results depend on the processing

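The 4 members called higher and the 6 called lower kept their direction under every alternative that gave a value, and 132 of 139 values of single members also stayed on the same side of the threshold. Leaving out any 1 library changed no member's call; log2 changes then ran from 2.58 to 2.69 for TUBA1A, 0.77 to 1.14 for TUBA1B and -9.10 to -8.26 for TUBB. TUBB2A ran from -4.19 to -3.09 and TUBB2B from -5.13 to -4.03, the smallest changes being without KO replicate 1. TUBB3 ran to -17.99 without KO replicate 1, where it is at 0 in KO and the fitted value is no bound. With limma on log2(FPKM + 0.1), TUBB2A was not called (-5.07, adjusted p = 0.063). With a minimum mean of 5 FPKM, TUBB6 was not tested and 26 pathway genes were called lower, since fewer genes were tested (over all genes 653 higher and 3851 lower, against 826 and 9519).

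Same-numbered KO and WT libraries deviated together only weakly (correlations 0.049, 0.003 and 0.089). This cannot decide whether the numbers pair the samples, because counting error in the shallow KO libraries can hide a shared deviation. The labels do not say whether they are paired. A replicate block left 1 member called lower and 2 pathway genes called lower. By edgeR's adjusted p, TUBA1B (0.92, adjusted p = 0.081), TUBB2A (-4.20, adjusted p = 0.094), TUBB2B (-5.08, adjusted p = 0.094), TUBB3 (-7.67, adjusted p = 0.079), TUBB4A (-14.17, adjusted p = 0.094) and TUBB6 (-13.00, adjusted p = 0.094) were then not called; over all genes 452 were higher and 289 lower.

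With TMM-scaled CPM the KO over WT ratio was 4.23 for summed alpha and 0.235 for summed beta; with FPKM it was 0.57 for beta. WT shares by counts in place of FPKM were 46.9% TUBA1A, 51.3% TUBA1B and 1.74% TUBA1C of alpha, and 60.1% TUBB, 4.79% TUBB2A, 9.18% TUBB2B, 15.4% TUBB3 and 8.68% TUBB4B of beta. With all other tubulin and pseudogene entries in the total they were 54.3% TUBA1B, 56.2% TUBB, 6.28% TUBB2A, 8.41% TUBB2B and 16.2% TUBB4B. KO shares by FPKM in place of pooled counts were 6.72% TUBA1C, 0.315% TUBB and 97.6% TUBB4B. The pseudogene share by FPKM was 0.146% in KO and 1.70% in WT. The causes of these shifts were not tested. The depth of the KO libraries limits every value of a gene with few or no KO counts.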
